A study of Mus musculus with 18 samples.

Results

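Autotaxin and the receptors for its product, lysophosphatidic acid (LPA), were followed across libraries of mouse retinal pigment epithelium (RPE, the pigmented layer behind the photoreceptors), with and without viral vectors. The members are the 7 rows of the count table named Enpp2 and Lpar1 to Lpar6, out of 52636 genes. They were chosen by symbol with their normalised levels per library in all 6 groups already known, so their levels and fold changes are given as descriptions, with no P value. The study asked which genes act downstream of the lipid synthesis regulator SREBP2 and of the endocytic receptor LRP2 in eye growth.

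Each of the 6 groups had 3 libraries, all from C57BL/6 mice at postnatal day 14 (P14). The uninjected group received no virus. The other groups received a serotype 8 adeno-associated virus (AAV8) in the subretinal space, between retina and RPE, on the day of birth, with expression driven by the Best1 promoter of RPE cells. The cargo was GFP, nSREBP2 (the constitutively nuclear N-terminal part of SREBP2), a control hairpin (ctrl sh, Laczsh in the labels), or 1 of the hairpins Lrp2 sh1 and Lrp2 sh2 against Lrp2. Both eyes of a mouse were pooled for a library, and RPE was dissociated from eyecups without retina, which the labels list as retinal tissue.

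Autotaxin is a secreted lysophospholipase D that makes LPA outside cells by removing choline from lysophosphatidylcholine. LPA acts on 6 G protein-coupled receptors. LPA1 to LPA3 belong to the EDG family together with the sphingosine 1-phosphate receptors, and LPA4 to LPA6 are closer to the purinergic receptors. They signal through the Gi, Gq and G12/13 classes of G protein, the last of which drives RhoA and the cytoskeleton. Lipid phosphate phosphatases at the cell surface end the signal. Autotaxin is abundant in epithelia such as that of the choroid plexus and is also made by RPE cells and oligodendrocytes.

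The libraries held 8921885 to 13696934 counts, and 3 counts equalled 0.219 to 0.336 CPM (counts scaled to library size, with edgeR's TMM factors). Srebf2 was at 208 to 233 CPM in nSREBP2 and at 83.7 to 121 CPM in the other 5 groups. Lrp2 was at 29.8 to 43.7 CPM in the Lrp2 hairpin groups against 87.8 to 166 CPM with ctrl sh. By Y-linked genes 6 libraries were male, namely uninjected 3, all nSREBP2 libraries, and Lrp2 sh2 2 and 3, so that sex and the nSREBP2 vector cannot be told apart within the GFP pair. The 8 RPE marker genes were all detected but did not move together. The visual cycle enzyme Rpe65 was at 377 to 1131 CPM in the uninjected libraries and at 1.06 to 97.1 CPM in the 15 injected ones, and the opsin relative Rgr was at 627 to 2140 CPM against 11.5 to 420.0 CPM. Best1 was at 4.38 to 6.88 CPM uninjected and 7.92 to 10.1 CPM with nSREBP2, Otx2 at 56.8 to 163 CPM uninjected and 164 to 212 CPM with ctrl sh, and Mitf at 138 to 247 CPM in all libraries. The fibroblast collagen Col1a1 was at 7980 to 45461 CPM in every library, and the sum of 7 rod genes at 10.3 to 276 CPM, highest with nSREBP2 at 187 to 276 CPM and in Lrp2 sh2 1 at 263 CPM. In such bulk samples, fewer cells of a type and less RNA per cell cannot be told apart.

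The promoter windows of the receptors are shown because the nSREBP2 vector supplies a DNA-binding factor, which is known to bind sterol regulatory elements and E-boxes. RefSeq windows (GRCm38.p6) of 300 bases, from 250 before to 50 after a transcription start, matched 6 of the 7 members, with 9 windows. Enpp2 had no window, so its promoter was not searched. Both strands were searched for the sterol element TCACNCCAC, found in 1.24% of 32851 windows, the shorter SRE-like GTGGGG, found in 28.71%, and the E-box CACGTG, found in 7.15%. A TCACNCCAC match whose N is C also holds GTGGGG on its other strand. Matches are in capitals below. Lpar2 is shown as the receptor with the most matches, Lpar5 as the receptor with the largest log2FC for nSREBP2 against GFP, and Lpar1 as the most abundant receptor.
Lpar2, chr8:69822315-69822614, plus strand: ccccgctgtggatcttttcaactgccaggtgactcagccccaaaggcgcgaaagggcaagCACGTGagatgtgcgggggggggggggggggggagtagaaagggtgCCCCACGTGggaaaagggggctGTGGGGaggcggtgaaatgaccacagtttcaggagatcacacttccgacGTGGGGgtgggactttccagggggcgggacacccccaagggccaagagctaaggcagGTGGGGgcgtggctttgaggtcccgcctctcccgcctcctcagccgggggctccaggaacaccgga
Lpar5, chr6:125067670-125067969, plus strand: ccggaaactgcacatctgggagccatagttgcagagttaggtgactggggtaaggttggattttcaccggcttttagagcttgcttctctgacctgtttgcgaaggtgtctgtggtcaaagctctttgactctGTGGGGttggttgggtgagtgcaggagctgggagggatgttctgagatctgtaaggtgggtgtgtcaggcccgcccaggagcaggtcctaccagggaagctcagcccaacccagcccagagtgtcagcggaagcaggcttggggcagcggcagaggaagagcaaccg
Lpar1, chr4:58553442-58553741, minus strand: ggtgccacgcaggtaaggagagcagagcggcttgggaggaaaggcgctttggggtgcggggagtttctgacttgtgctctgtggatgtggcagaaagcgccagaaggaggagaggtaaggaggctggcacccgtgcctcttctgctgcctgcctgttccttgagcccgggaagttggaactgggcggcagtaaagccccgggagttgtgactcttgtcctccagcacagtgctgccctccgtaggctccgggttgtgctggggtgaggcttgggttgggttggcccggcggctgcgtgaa
The Lpar2 window held 4 GTGGGG and 2 CACGTG matches. The reverse GTGGGG match that starts 144 bases before the RefSeq start shares bases with the E-box that starts 141 bases before it. The Lpar2 gene position given below begins upstream of that start, at 69822429, inside this window. GTGGGG matches nearer the RefSeq start thus lie within that gene position. At least 4 GTGGGG matches were in 0.36% of all windows and at least 2 E-boxes in 0.59%. The first Lpar5 window held a single GTGGGG, 117 bases before the start. The windows of Lpar1, Lpar3, Lpar4 and Lpar6 and the second of Lpar5 held no match to any of the 3 motifs.

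Set against transcript length (CPM per kilobase of exon), Enpp2 was the most abundant member, with a mean of 80.2 over the 18 libraries. Lpar1 followed with 21.5, then Lpar4 with 4.98 and Lpar6 with 4.03, and Lpar2, Lpar5 and Lpar3 were below 1, with 0.859, 0.721 and 0.320. Enpp2 also varied most of the well-counted members: its highest library was 22.4 times its lowest, against 2.17 times for Lpar1, 1.68 times for Lpar6 and 1.59 times for Lpar4. The ratios of 9.16 for Lpar3 and 9.99 for Lpar5 rest on libraries with as few as 2 and 4 counts.

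Enpp2 (ENSMUSG00000022425.15, GRCm38 chr15:54838901-54952892, minus strand) encodes autotaxin. In the uninjected libraries it was at 288, 761 and 999.95 CPM. In the GFP libraries it was at 126, 137 and 104 CPM, and with nSREBP2 at 100.3, 73.5 and 82.2 CPM. The groups did not overlap, and each step was downward. With ctrl sh Enpp2 was at 1382, 1249 and 1646 CPM, above every other library of the series. With Lrp2 sh1 it was at 279, 275 and 278 CPM, and with Lrp2 sh2 at 163, 157 and 246 CPM. All 6 hairpin libraries against Lrp2 thus lay below the 3 ctrl sh libraries, and the uninjected range reached down to 288 CPM, just above Lrp2 sh1. The group means ran from ctrl sh (1426 ± 202 CPM, SD, n = 3) through uninjected (683 ± 363), Lrp2 sh1 (277 ± 2.26), Lrp2 sh2 (189 ± 49.9) and GFP (122 ± 16.6) to nSREBP2 (85.3 ± 13.7). No pair of neighbours in that order overlapped in range.

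**Figure D1:**
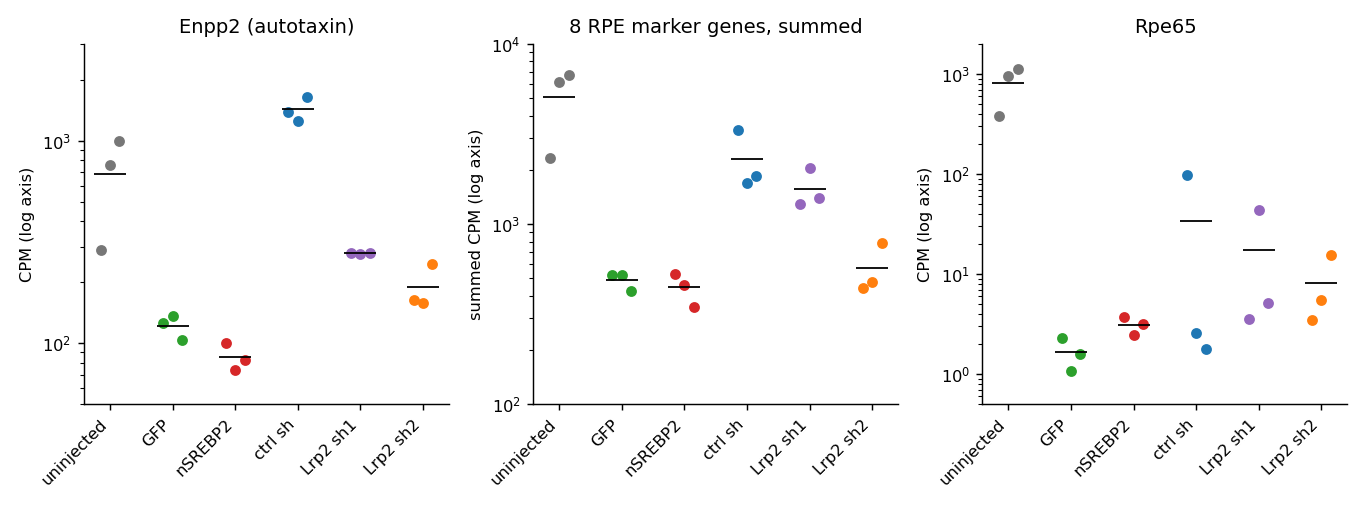
Enpp2, the sum of 8 RPE marker genes and Rpe65 in the 18 libraries, as CPM on log axes; each point is a library, in replicate order from left to right, and each bar a group mean. Enpp2 was highest with ctrl sh, at 1249 to 1646 CPM, where Rpe65 was at 1.77 to 97.1 CPM.

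In edgeR's quasi-likelihood fits, the log2 fold change (log2FC) of Enpp2 was -2.36 (SE 0.10) for Lrp2 sh1 against ctrl sh, a level 5.15 times lower. For Lrp2 sh2 against ctrl sh it was -2.91 (SE 0.18), a level 7.51 times lower. The direct comparison of Lrp2 sh2 with Lrp2 sh1 gave -0.55 (SE 0.15). For nSREBP2 against GFP the log2FC was -0.51 (SE 0.13), 1.42 times lower. When sex was added to a model of the 18 libraries together, the log2FC was -1.14 for that pair and -3.34 for Lrp2 sh2 against ctrl sh. For Lrp2 sh2 against Lrp2 sh1 it was -0.97. Only the uninjected and Lrp2 sh2 groups held both sexes, so the sex term rested on those groups alone. Enpp2 was at 999.95 CPM in the uninjected male and at 288 and 761 CPM in the uninjected females. The -1.14 therefore does not separate sex from the nSREBP2 vector.

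The 2 control vectors stood on opposite sides of the uninjected group. GFP against uninjected gave a log2FC of -2.49 (SE 0.38), 5.64 times lower, and ctrl sh against uninjected gave 1.06 (SE 0.37), 2.08 times higher. Both share the uninjected libraries, whose values spanned 288 to 999.95 CPM. Leaving out uninjected 1 gave -2.86 and 0.69, and leaving out uninjected 3 gave -2.11 and 1.44, with the direction kept. The Lrp2 sh1 level of 275 to 279 CPM was therefore low against its own control and close to the lowest uninjected library.

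Markers of the RPE moved with part of this pattern. The sum of 8 RPE marker genes was 2318, 6114 and 6703 CPM in the uninjected libraries, in the same order as Enpp2. It was 426 to 523 CPM with GFP, 347 to 531 with nSREBP2, 441 to 786 with Lrp2 sh2, 1296 to 2039 with Lrp2 sh1 and 1689 to 3333 with ctrl sh. The ratio of Enpp2 to that sum was 0.124 to 0.149 in the uninjected libraries, 0.242 to 0.261 with GFP and 0.161 to 0.237 with nSREBP2. It was 0.135 to 0.216 with Lrp2 sh1 and 0.313 to 0.368 with Lrp2 sh2, and it was highest with ctrl sh, at 0.415 to 0.893. Of the single RPE genes, Rpe65 was at 1.77 and 2.58 CPM in ctrl sh replicates 3 and 2, which held 1646 and 1249 CPM of Enpp2, while Ttr, the thyroid hormone and retinol carrier transthyretin, was at 1135 to 1940 CPM with ctrl sh and 40.7 to 72.9 CPM with GFP. The part of RPE content in the Enpp2 differences was not tested.

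Oligodendrocytes are another source of autotaxin, and their markers were also uneven. The sum of 8 Schwann cell and oligodendrocyte genes was 757, 1316 and 367 CPM in the ctrl sh libraries and 226 to 547 CPM in all others. The part of these cells in the Enpp2 differences was not tested. The antisense neighbour Gm26684 overlaps 345 exon bases of Enpp2 and was at 0 to 0.676 CPM.

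Lpar1 (ENSMUSG00000038668.14, chr4:58435255-58553898, minus strand) encodes LPA1, the most widely expressed LPA receptor, which signals through all 3 classes of G protein named above. In the uninjected libraries it was at 56.2, 57.4 and 52.9 CPM. With GFP it was at 77.5, 73.5 and 84.9 CPM, and with nSREBP2 at 108, 102 and 110.1 CPM. The 3 groups did not overlap, in the reverse of the Enpp2 order. With ctrl sh Lpar1 was at 85.5, 109 and 111 CPM, with Lrp2 sh1 at 91.9, 115 and 101 CPM, and with Lrp2 sh2 at 103, 114 and 108 CPM. Those hairpin groups and nSREBP2 overlapped one another, with group means of 102 to 108 CPM.

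The log2FC of Lpar1 was 0.44 (SE 0.07) for nSREBP2 against GFP, 0.49 (SE 0.08) for GFP against uninjected and 0.87 (SE 0.11) for ctrl sh against uninjected. For Lrp2 sh1 against ctrl sh it was 0.01 (SE 0.11), and for Lrp2 sh2 against ctrl sh 0.10 (SE 0.10). These Lpar1 values lay within 1 SE of 0, in the comparisons where Enpp2 was 5.15 and 7.51 times lower. All vector groups were above the uninjected group in Lpar1, whereas Enpp2 was above it with ctrl sh and below it with GFP.

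**Figure D2:**
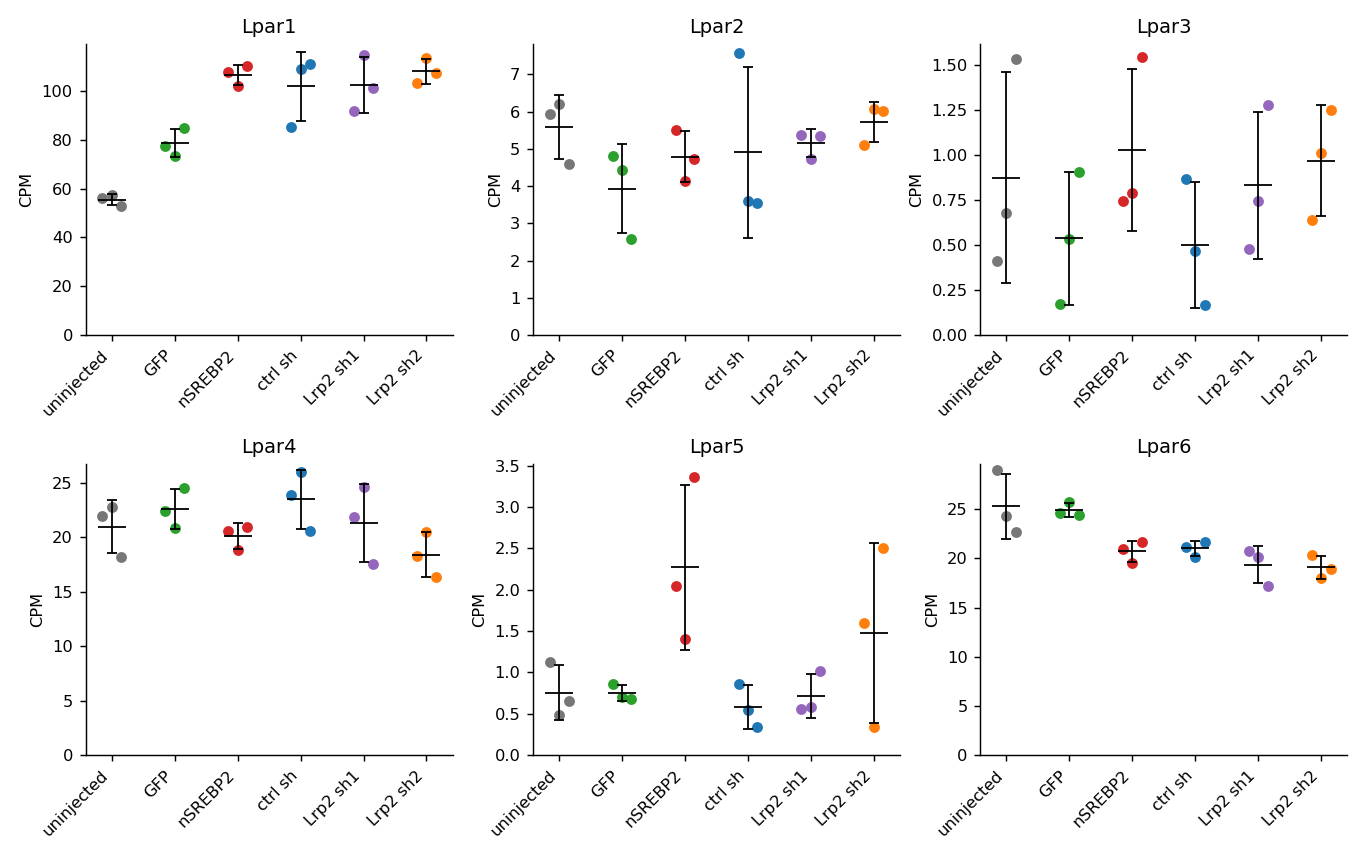
CPM of the 6 LPA receptor genes in the 18 libraries; points are libraries, the horizontal bar is the group mean, and the whiskers are the SD (n = 3), on linear axes from 0 that differ between panels. The uninjected Lpar1 values, 52.9 to 57.4 CPM, lie below all 15 injected libraries.

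Collagens (Col1a1, Col1a2 and Col3a1) made up most of the fibroblast marker sum, which moved with part of the Lpar1 pattern. The sum of 8 fibroblast genes was 20033 to 32336 CPM in the uninjected libraries, 36755 to 46108 with GFP and 75303 to 89365 with nSREBP2. The hairpin groups held 35385 to 56585 CPM of it, with Lpar1 levels that overlapped those of nSREBP2. The ctrl sh library lowest in Lpar1, at 85.5 CPM, also had the lowest fibroblast sum of that group, 35385 CPM. The 8 genes did not all move together. Pdgfra had means of 409 CPM uninjected, 357 with GFP, 336 with ctrl sh and 492 with nSREBP2. The part of fibroblast content in the Lpar1 differences was not tested.

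Lpar2 (ENSMUSG00000031861.15, chr8:69822429-69831102, plus strand) encodes LPA2, an EDG-family receptor. It ranged from 2.56 to 7.57 CPM over 34 to 105 counts. It was at 4.80, 4.43 and 2.56 CPM with GFP and at 5.50, 4.13 and 4.73 CPM with nSREBP2, and these groups overlapped. The log2FC for nSREBP2 against GFP was 0.29 (SE 0.26). With ctrl sh Lpar2 was at 7.57, 3.60 and 3.55 CPM, and the log2FC against ctrl sh was 0.06 (SE 0.29) for Lrp2 sh1 and 0.22 (SE 0.29) for Lrp2 sh2. The first ctrl sh library decided these: without it they were 0.52 and 0.68, and ctrl sh against uninjected went from -0.19 (SE 0.31) to -0.65.

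Lpar3 (ENSMUSG00000036832.5, chr3:146220963-146286186, plus strand) encodes LPA3, the third EDG-family member, known for its role in embryo implantation. It had 2 to 17 counts a library, or 0.169 to 1.55 CPM, and the groups overlapped throughout. It passed the filter on low counts in 2 of the 6 comparisons, where the log2FC was 0.90 (SE 0.51) for Lrp2 sh2 against ctrl sh and 0.23 (SE 0.44) for Lrp2 sh2 against Lrp2 sh1. A difference was not detectable at this depth.

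Lpar4 (ENSMUSG00000049929.7, chrX:106920625-106933900, plus strand) encodes LPA4, a receptor known for a role in blood and lymph vessels. It was among the steadiest members, at 16.4 to 26.0 CPM. It was at 23.9, 26.0 and 20.5 CPM with ctrl sh and at 18.3, 20.5 and 16.4 CPM with Lrp2 sh2. These ranges did not overlap, at 20.47 against 20.52 CPM where they came closest, with a log2FC of -0.34 (SE 0.12). In the other 5 comparisons the groups overlapped and the log2FC lay between -0.21 and 0.15. The sum of 8 endothelial marker genes was 1321 to 1394 CPM with Lrp2 sh2 against 1983 to 2065 CPM with ctrl sh, and 1391 to 1471 CPM with nSREBP2 against 1842 to 2338 CPM with GFP. Both Lpar4 values were lower in the same pairs, -0.34 and -0.16 (SE 0.10). With sex as a term, in the fit of all 18 libraries, they were -0.26 and -0.03. Lpar4 lies on the X chromosome, and sex and the nSREBP2 vector cannot be told apart within the GFP pair. The endothelial genes did not all move alike between nSREBP2 and GFP. Pecam1 had means of 217 and 202 CPM, and Plvap had means of 142 and 269 CPM. The part of endothelial content was not tested.

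**Figure D3:**
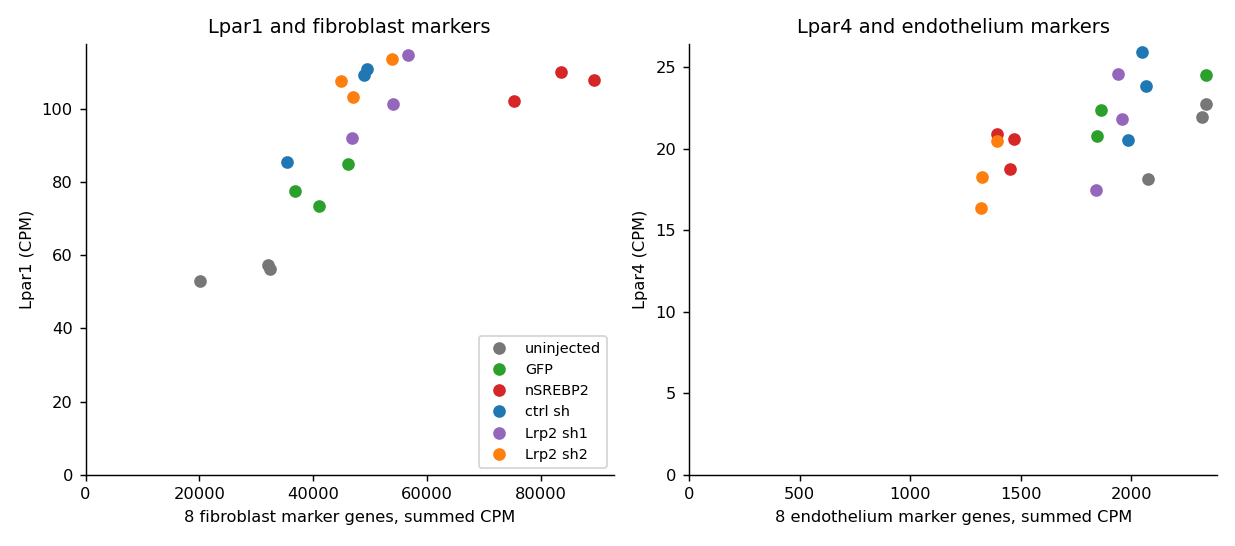
Lpar1 against the summed CPM of 8 fibroblast marker genes, and Lpar4 against that of 8 endothelial marker genes, in the 18 libraries coloured by group, on linear axes from 0. The 3 nSREBP2 libraries, with 75303 to 89365 CPM of fibroblast markers, stand apart on the left plot at Lpar1 levels of 102 to 110.1 CPM.

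Lpar5 (ENSMUSG00000067714.13, chr6:125067920-125082472, plus strand) encodes LPA5, a receptor described in immune cells and sensory neurons. With GFP it was at 0.857, 0.709 and 0.679 CPM, and with nSREBP2 at 2.05, 1.40 and 3.37 CPM, or 16 to 37 counts. The ranges did not overlap, and the log2FC was 1.60 (SE 0.39), 3.02 times higher. With Lrp2 sh2 it was at 1.60, 0.337 and 2.50 CPM against 0.865, 0.547 and 0.338 CPM with ctrl sh. In that pair the groups overlapped because the second Lrp2 sh2 library was at the level of the lowest ctrl sh library, and the log2FC was 1.31 (SE 0.62). The uninjected and Lrp2 sh1 libraries lay between 0.484 and 1.13 CPM. Lpar5 did not pass the filter in 3 comparisons, and it passed in the others through the nSREBP2 or Lrp2 sh2 libraries. The sum of 8 macrophage and microglia genes was 551 to 587 CPM with nSREBP2 against 290.4 to 335 CPM with GFP, and 332 to 451 CPM with Lrp2 sh2 against 305 to 319 CPM with ctrl sh. By library the order differed. The library highest in Lpar5 had the lowest sum of its group, 551 CPM in nSREBP2 3 and 332 CPM in Lrp2 sh2 3. The part of these cells in the Lpar5 difference was not tested.

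Lpar6 (ENSMUSG00000033446.7, chr14:73237895-73243294, plus strand) encodes LPA6, known for its role in hair growth, and lies within the gene Rb1, whose exons on the other strand overlap 408 of its bases. It was at 29.0, 24.3 and 22.6 CPM in the uninjected and at 24.7, 25.8 and 24.4 CPM in the GFP libraries. With nSREBP2 it was at 20.96, 19.6 and 21.7 CPM, below all GFP libraries, with a log2FC of -0.26 (SE 0.09). With ctrl sh it was at 21.2, 20.2 and 21.7 CPM, below all uninjected libraries, with a log2FC of -0.28 (SE 0.12). With sex as a term, in the fit of all 18 libraries, the log2FC was -0.08 for nSREBP2 against GFP and -0.33 for ctrl sh against uninjected. The Lrp2 hairpin groups, at 17.3 to 20.7 CPM, overlapped ctrl sh. Rb1 was at 68.6 to 73.5 CPM with GFP and 57.1 to 60.6 CPM with nSREBP2, in the same direction as Lpar6. The use of strand in counting is not given in the sources used here, so reads of the shared bases cannot be assigned.

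Among the receptors, Lpar1 made up a larger share in every injected group. As a share of the summed CPM per kilobase of the 6 receptors, Lpar1 made up 51.3% to 54.5% in the uninjected libraries, 60.6% to 63.1% with GFP and 67.1% to 70.4% with nSREBP2. It made up 62.9% to 72.6% with ctrl sh, 67.2% to 71.4% with Lrp2 sh1 and 70.1% to 72.9% with Lrp2 sh2. The uninjected libraries thus lay below every injected library in this share.

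A gene was called when its absolute log2FC exceeded 1 and its adjusted P was below 0.05. The members' calls are printed with those of all genes and nothing is read from them. For nSREBP2 against GFP, Lpar5 passed as higher and no member as lower, while 4.71% of all genes tested passed as higher and 1.96% as lower. The Lpar5 call was lost with sex as a term, without GFP 2 and without nSREBP2 3, at log2FC of 1.80, 1.56 and 1.20. For Lrp2 sh1 against ctrl sh, Enpp2 passed as lower beside 0.449% of genes higher and 0.545% lower. For Lrp2 sh2 against ctrl sh, Enpp2 passed as lower beside 2.98% higher and 1.78% lower. For GFP against uninjected, Enpp2 passed as lower beside 0.219% higher and 1.19% lower, and the call was lost without uninjected 2, GFP 1 or GFP 2, at -2.41, -2.51 and -2.58. No member passed for ctrl sh against uninjected, beside 0.875% higher and 1.51% lower, or for Lrp2 sh2 against Lrp2 sh1, beside 3.32% higher and 1.81% lower. Enpp2 was called for ctrl sh against uninjected without a filter, in the fit of all 18 libraries and with sex as a term. Lpar5 was called as higher for Lrp2 sh2 in both of its comparisons once Lrp2 sh2 2 was left out.

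**Figure D4:**
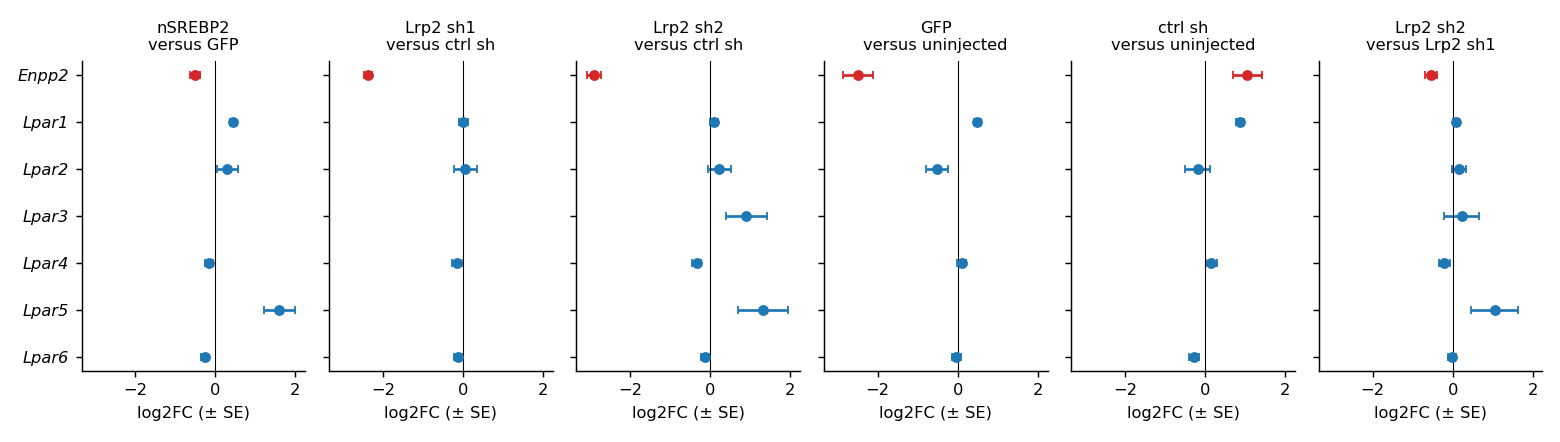
log2FC with SE of the 7 members in the 6 comparisons from edgeR; red points are Enpp2, blue points the receptors, and a member with no point did not pass the filter on low counts. Enpp2 lies at -2.36 and -2.91 for the Lrp2 hairpins against ctrl sh, and Lpar1 at 0.01 and 0.10.

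The genes whose pattern was most like that of a member were found by Pearson's r of log2 CPM over the 18 libraries, among 15068 genes with a mean of at least 2 CPM. The 18 points share their groups and library makeup, so r is a description. Enpp2 was most like Crhr2 (r = 0.966), a receptor for urocortins, Sgk3 (0.938), a serum and glucocorticoid regulated kinase, and Crb3 (0.927), an apical polarity protein of epithelia. Crhr2 had group means of 9.04 CPM with ctrl sh, 5.64 CPM uninjected and 0.971 CPM with nSREBP2, the same extremes as Enpp2. Lpar1 was most like P4hb (0.945), the protein disulfide isomerase that also serves collagen hydroxylation, Tmem165 (0.936), a Golgi protein needed for glycosylation, and Surf4 (0.934), a cargo receptor of the secretory pathway. For Lpar6 they were Atp8a1 (0.887), Rps6ka5 (0.862) and Ccdc3 (0.856), and for Lpar4 they were Thsd1 (0.813), Snx13 (0.796) and Amot (0.787). Lpar2, with few counts, reached 0.772 with AC142113.2, 0.734 with Gm42869 and 0.722 with Meis1.

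The rest of the pathway was read from 7 lists of 54 genes for LPA supply and removal, the ENPP family, related receptors, G proteins, the RhoA arm and transcripts that LPA is known to induce. None of these genes was used to choose the members, and 49 or 50 were tested in each comparison. In nSREBP2 against GFP 4 of 49 tested genes rose and 0 fell (edgeR, adjusted P under 0.05 and absolute log2FC above 1), beside 4.71% and 1.96% of all genes, and the median log2FC of the 49 was -0.08, against -0.02 for all genes. On the adjusted P alone, 8 were higher and 10 lower, 36.7% of those tested against 21.03% of all genes. Enpp1, the ectoenzyme that makes pyrophosphate from ATP and a relative of autotaxin without its lysophospholipase D role, rose from 99.8 to 119 CPM in the GFP libraries to 244 to 291 CPM (log2FC 1.36, SE 0.09, adjusted P = 1.6e-05, edgeR). Its relative Enpp3 rose from 12.5 to 15.3 CPM to 26.9 to 45.1 CPM (log2FC 1.26, SE 0.19), a call lost with sex as a term (adjusted P = 0.0843, edgeR) and without nSREBP2 3 (log2FC 0.99). The other 3 tested relatives had negative log2FC values and were not called: -0.51 for Enpp5, -0.53 for Enpp6 and -0.42 for Enpp4, each with an adjusted P below 0.05 by edgeR. The median of the 5 was -0.42, and Enpp2 itself had a log2FC of -0.51.

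In the same comparison Pla1a, a phospholipase that makes lysophosphatidylserine, rose from 3.43 to 5.58 CPM to 14.2 to 17.5 CPM (log2FC 1.84, SE 0.19). P2ry10, a receptor for lysophosphatidylserine, rose from 0.343 to 1.06 CPM to 3.07 to 5.03 CPM (log2FC 2.49, SE 0.37). P2ry10 is known from immune cells, and the macrophage and microglia sum was higher with nSREBP2, as given with Lpar5; its part was not tested.

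With Lrp2 sh1 against ctrl sh 0 of 49 pathway genes were called by edgeR in either direction, and on the adjusted P alone 2 were higher and 2 lower, or 8.16% against 5.33% of all genes. With Lrp2 sh2 against ctrl sh 3 of 50 rose and 1 fell, beside 2.98% and 1.78% of all genes, with a median log2FC of -0.01 against 0.01 for all genes. On the adjusted P alone 11 were higher and 8 lower, or 38.0% against 18.1% of all genes. Pla1a rose from 3.68 to 4.90 CPM to 11.5 to 15.4 CPM (log2FC 1.65, SE 0.17) and Enpp1 from 88.8 to 112 CPM to 212 to 269 CPM (log2FC 1.22, SE 0.11). These 2 genes were also called with nSREBP2, and each kept its call when any single library was left out. Gpat3, a glycerol-3-phosphate acyltransferase that makes intracellular LPA (log2FC 1.25, SE 0.34), and the lymphocyte receptor S1pr4 (log2FC -1.06, SE 0.30) each kept their call in 1 of 6 fits that left out a library. The Gpat3 call was also lost with sex as a term (adjusted P = 0.0513, edgeR) and with DESeq2 (adjusted P = 0.0854). The direct comparison of Lrp2 sh2 with Lrp2 sh1 called 4 of 50 as higher and 0 as lower, beside 3.32% and 1.81% of all genes, with a median log2FC of 0.03 against 0.01 for all genes. On the adjusted P alone 11 were higher and 8 lower, or 38.0% against 22.4% of all genes.

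In that comparison of the hairpins the called genes were Pla1a (log2FC 1.90, SE 0.19), Gpat3 (1.72, SE 0.40), Tagln (1.13, SE 0.31) and Acta2 (1.08, SE 0.10). Gpat3 rested on few counts, at 0.331 to 0.95 CPM with Lrp2 sh1 and 1.43 to 2.59 CPM with Lrp2 sh2. Acta2 and Tagln encode smooth muscle proteins, and Acta2 rose from 180 to 222 CPM with Lrp2 sh1 to 368 to 455 CPM with Lrp2 sh2. The summed pericyte and smooth muscle markers of those groups overlapped, at 2607 to 2860 CPM and 2260 to 2778 CPM. The genes of that sum did not move alike. Des was at 34.2 to 38.7 CPM with Lrp2 sh1 and 43.9 to 48.9 CPM with Lrp2 sh2. Myh11 went the other way, from 167 to 215 CPM to 149 to 164 CPM. The part of these cells in the Acta2 and Tagln differences was not tested. Tagln, at 0.68 to 1.92 CPM, kept its call in 1 of 6 fits that left out a library, and lost it with sex as a term (adjusted P = 0.113, edgeR), with no filter (0.0508) and with DESeq2 (0.166). Acta2 lost its call with sex as a term (log2FC 0.96) and without Lrp2 sh1 3 (log2FC 0.99). Gpat3 lost its call without Lrp2 sh1 2 (adjusted P = 0.0537, edgeR). Exons of other genes on the other strand overlap 1349 of the 1988 exon bases of Tagln. In Gpat3 they overlap 1052 of 3502, with 259 more overlapped on the same strand. The use of strand in counting is not given, so reads of these bases cannot be assigned.

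Against the uninjected group, 1 of 49 pathway genes fell in each comparison and 0 rose, beside 1.19% of all genes lower with GFP and 1.51% with ctrl sh. It was Gpam both times, the mitochondrial glycerol-3-phosphate acyltransferase, with a log2FC of -1.63 (SE 0.28) with GFP and -1.35 (SE 0.34) with ctrl sh. Its uninjected libraries were at 104, 239 and 234 CPM, the first of which was also lowest in RPE markers. The calls held in 1 and 2 of 6 fits that left out a library. The median log2FC over the tested genes was -0.06 with GFP and -0.08 with ctrl sh.

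The most abundant genes of the lists, by mean CPM, were Gpam (89.3), the LPA phosphatase Plpp3 (281), Enpp1 (155), the sphingosine 1-phosphate receptor S1pr3 (86.4), the Gi subunit Gnai2 (317), the RhoA exchange factor Arhgef12 (541) and the matricellular growth factor Ccn2 (565). Plpp3 was at 222 to 355 CPM, Gnai2 at 274 to 358 CPM and Ccn2 at 389 to 684 CPM over the 18 libraries, and none of Plpp3, S1pr3, Gnai2, Arhgef12 and Ccn2 was called in any comparison. No gene of the LPA removal, G protein and RhoA lists passed both thresholds in any of the 6 comparisons. On edgeR's adjusted P alone, nSREBP2 against GFP had 1 LPA removal gene higher, 2 lower, and 2 G proteins higher, 1 lower. Lrp2 sh2 against ctrl sh had 1 and 3, and 1 and 2. Plpp1, another LPA phosphatase, was at 55.5 to 70.5 CPM with GFP and 30.6 to 35.6 CPM with nSREBP2. It was at 56.998 to 72.7 CPM with ctrl sh and 35.6 to 37.7 CPM with Lrp2 sh2. In the same order, the Gi subunit Gnai1 was at 21.2 to 23.04, 12.02 to 13.5, 27.2 to 31.4 and 15.7 to 20.9 CPM.

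**Figure D5:**
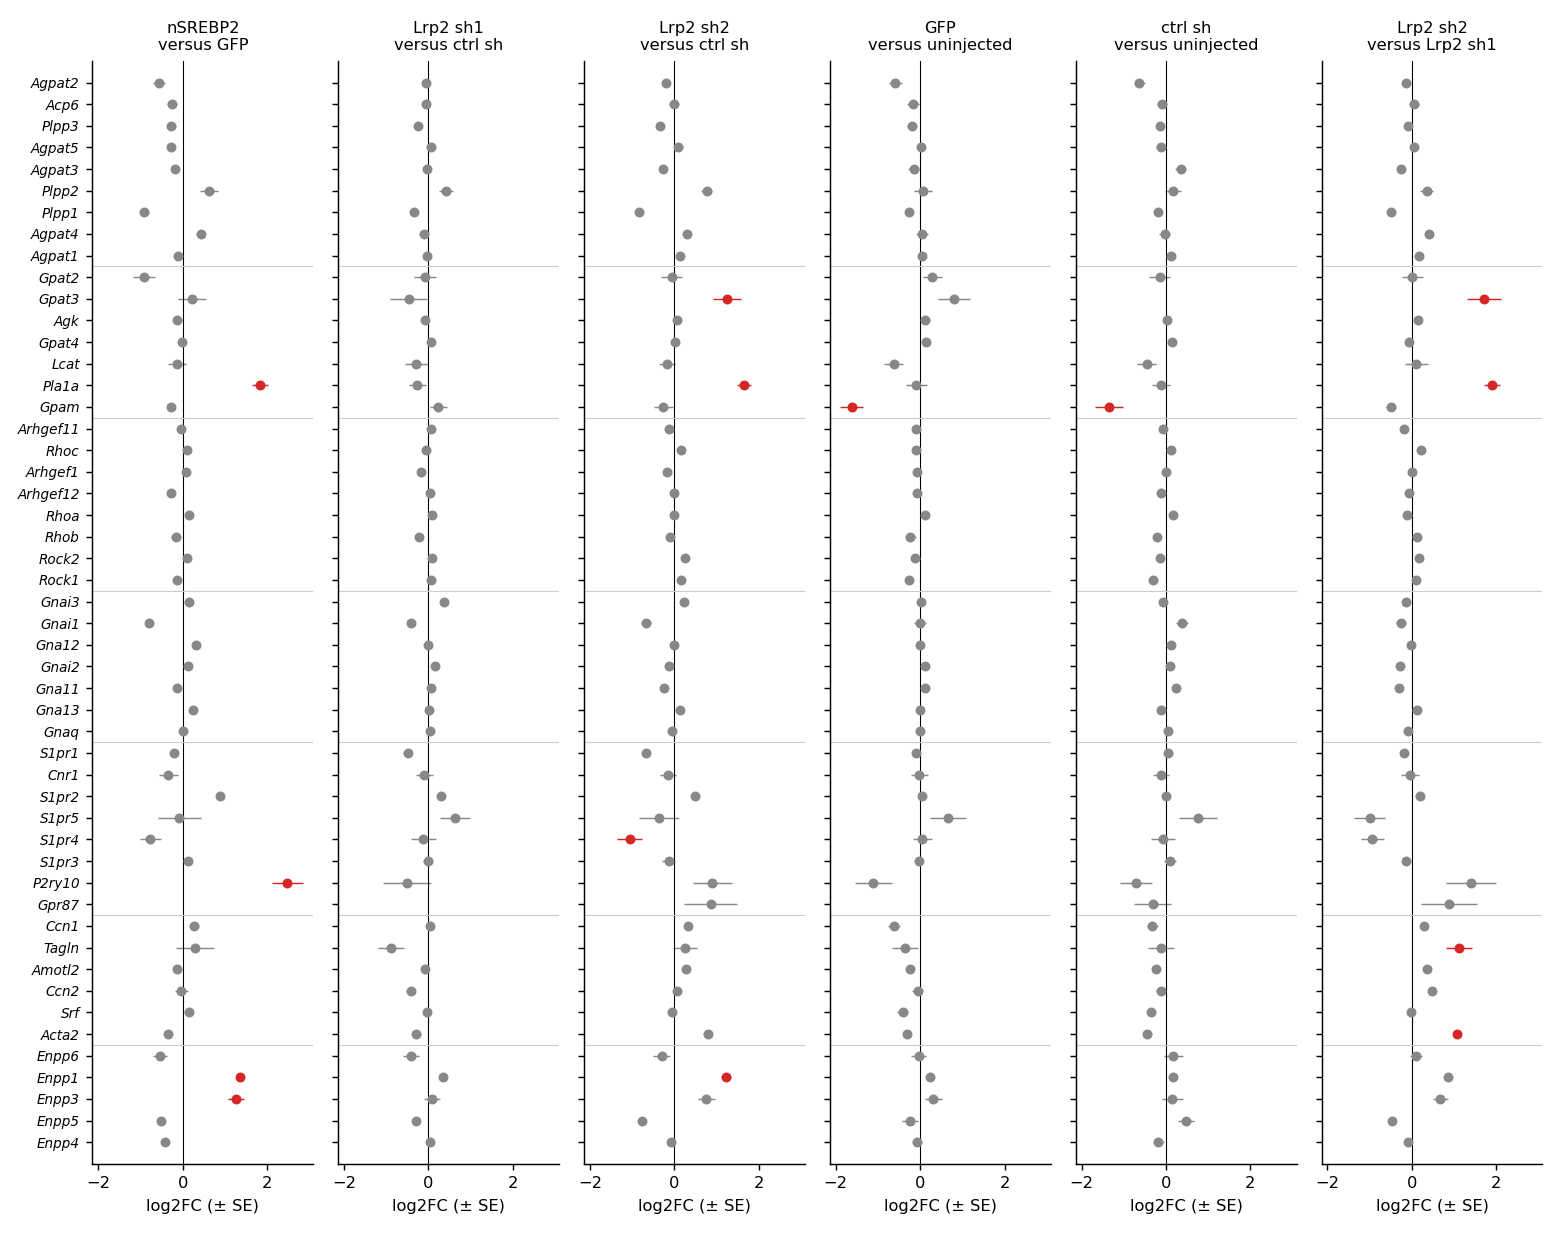
log2FC with SE of the tested pathway genes in the 6 comparisons, separated by grey lines into LPA removal, LPA and lysolipid supply, RhoA arm, G proteins, related receptors, LPA-induced transcripts and ENPP family; red points passed an adjusted P under 0.05 and an absolute log2FC above 1 by edgeR. Pla1a is red for nSREBP2 against GFP and in both comparisons of Lrp2 sh2.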

How the data were processed

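RNA from dissociated RPE was depleted of ribosomal RNA and made into directional libraries. Per the labels and the study's methods, the authors aligned reads to GRCm38 with STAR and deposited whole-number counts per gene with Ensembl identifiers and symbols; which annotation they counted on, and whether by strand, is not given in the sources used here. Gene positions came from GENCODE M21 (GRCm38), to which 52489 of 52636 identifiers matched. The 18 libraries held 8921885 to 13696934 counts, so low genes carry counting error.

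Groups came from the sample titles. Members and gene lists were chosen with earlier results of these data known; 1 pathway gene and 1 rod marker are not reported here. Counts were tested with edgeR 4.0.16 (quasi-likelihood, filterByExpr, TMM, Benjamini-Hochberg over all genes) in R 4.3.3, each comparison fitted on its own 6 libraries as the study fitted its pairs with DESeq2, and with the study's threshold for calls. Levels are CPM, with TMM factors computed across the 18 libraries. The SE of a log2FC is its absolute value divided by the square root of the quasi-likelihood F statistic. On simulated counts for nSREBP2 against GFP, 200 of 200 changed genes were recovered with 8 false calls among 17927 genes. The changed genes were drawn from well-counted genes and set well beyond the threshold for calls. Recovery of genes with few counts, or of changes near the threshold, was therefore not tried. Named genes were the 7 members; pathway genes called in at least 1 comparison, at most 8 per comparison; the top gene of each list; the 3 genes most like each member with a mean of at least 2 CPM; and Rb1. Alternatives were DESeq2 1.42.0, its size factors, other filters, all 18 libraries in one fit, sex as a term, a replicate block, the adjusted P alone and leaving out each library. Libraries of a group were taken to come from separate mice, since both eyes of a mouse were pooled, but the labels name only replicates. The least different pair had a chi-square of 3.57 per degree of freedom, above sampling noise, which cannot by itself show separate mice.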

Additional observations from a re-analysis of the deposited data

Results flagged for a closer look

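The Enpp2 values of the 2 control vectors lay on opposite sides of the uninjected libraries: all 3 GFP libraries were below and all 3 ctrl sh libraries above every uninjected library. The log2FC values differed by 3.55, and this difference was not tested.

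The hairpins against Lrp2 differed from each other in 4 of 50 pathway genes, all higher with Lrp2 sh2 by the direct comparison in edgeR. Of all genes tested, 3.32% were called higher and 1.81% lower. The log2FC of Lrp2 sh2 against Lrp2 sh1 was 1.90 for Pla1a, 1.72 for Gpat3, 1.13 for Tagln and 1.08 for Acta2. Tagln kept its call in 1 of 6 fits that left out a library. Lrp2 itself was at 29.8 to 42.8 CPM with Lrp2 sh1 and 34.7 to 43.7 CPM with Lrp2 sh2. The Lrp2 sh2 group held 2 male libraries and Lrp2 sh1 none. With sex as a term, Pla1a (log2FC 2.08) and Gpat3 (1.89) kept their calls, and Acta2 (0.96) and Tagln (1.14, adjusted P = 0.113 by edgeR) lost them. Gpat3 rested on few counts, at 0.331 to 0.95 CPM with Lrp2 sh1. For this pair Gpat3 was not tested where at least 10 counts were required in every library.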

How the results depend on the processing

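Of 450 alternative log2FC values of the members, 438 moved by less than the spread between replicates, 12 moved by more, and none of those called changed sign; 14 small values crossed 0. All 42 group levels kept their value with DESeq2 size factors. Enpp2 moved with sex as a term, to -1.14 (nSREBP2 against GFP), -3.34 (Lrp2 sh2 against ctrl sh) and -0.97 (Lrp2 sh2 against Lrp2 sh1). The cause was not tested. For every gene, the sex term rested on the uninjected and Lrp2 sh2 groups, which alone held both sexes. On the adjusted P alone, genes called were 3770 (nSREBP2 against GFP), 949 (Lrp2 sh1 against ctrl sh), 3268 (Lrp2 sh2 against ctrl sh), 442 (GFP against uninjected), 1157 (ctrl sh against uninjected) and 4029 (Lrp2 sh2 against Lrp2 sh1), and pathway genes called were 18, 4, 19, 1, 3 and 19. For GFP against uninjected, genes called were 554 with no filter, 534 in the fit of all 18 libraries and 404 with sex as a term; for ctrl sh against uninjected, 687 with no filter and 746 in the fit of all 18. At least 10 counts in every library left 613 genes and 2 pathway genes called for Lrp2 sh2 against Lrp2 sh1. Leaving out a library gave 110 to 221 genes for Lrp2 sh1 against ctrl sh, 57 to 362 for GFP against uninjected and 79 to 423 for ctrl sh against uninjected; the lowest counts were without Lrp2 sh1 3, GFP 2 and ctrl sh 2. Pathway genes called then ran from 2 to 3 for Lrp2 sh2 against ctrl sh, 0 to 1 in both comparisons with uninjected, and 3 to 7 for Lrp2 sh2 against Lrp2 sh1, the highest without Lrp2 sh2 3.

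Replicate numbers did not pair the libraries: same-number correlations ran from -0.41 to 0.36, and 0, 0, 0, 1, 0 and 4 of 6 libraries went best with their own number. The replicate block changed genes called to 131 for ctrl sh against uninjected, and pathway genes called to 2 for Lrp2 sh2 against ctrl sh and 0 for ctrl sh against uninjected; elsewhere counts stayed within 1.5 times. Depth limits Lpar3 and Lpar5, at 2 to 37 counts a library. It also limits Gpat3, at 0.331 to 0.95 CPM with Lrp2 sh1, and P2ry10, at 0.343 to 1.06 CPM with GFP.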
